A study of Mus musculus with 4 samples.

Results

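Messenger RNAs of the cytosolic and the mitochondrial ribosomal proteins were compared between PLZF+ and PLZF- γδ T cells of mouse epididymal fat. Members were taken by name, as each row of the expression table that carried a ribosomal protein symbol, with earlier results of these data known. Kinases of the Rps6k type and names marked as pseudogenes were left out. The choice gave 167 of the 46799 rows, of which 90 were cytosolic and 77 mitochondrial. Of the 90 cytosolic rows, 83 were protein-coding genes, 5 were pseudogenes in the annotation, and 2 had a name with no such gene at their position. All 77 mitochondrial rows were protein-coding genes, with 2 rows for Mrpl48.

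The cells came from male C57Bl/6 mice aged 16 to 22 weeks that carried a GFP reporter of PLZF, the transcription factor encoded by Zbtb16, and there were 2 libraries of PLZF+ cells (table columns A7 and B7) and 2 of PLZF- cells (A6 and B6). The names of these columns all carry the tag SFD, which the sample titles do not explain. Each library was a pool of 10 mice, and every mouse of both subsets had the reporter. Cells were sorted by flow cytometry into lysis buffer and turned into full-length cDNA libraries by SMART-seq2. The study's title concerns γδ T cells that make IL-17A, their effect on regulatory T cells of fat, and heat production.

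A ribosome consists of a large and a small subunit built from ribosomal RNA and many small, basic proteins. Cytosolic ribosomes (60S and 40S subunits) make nearly all proteins of the cell, and their protein genes are among the most strongly transcribed genes of a lymphocyte. Mitochondrial ribosomes (39S and 28S subunits) are assembled from nuclear-encoded proteins and make the few oxidative phosphorylation subunits that mitochondrial DNA encodes. Most messages of cytosolic ribosomal proteins start with a tract of C and T bases, the 5′ terminal oligopyrimidine (TOP) tract, through which mTOR signalling sets their translation.

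The first 30 bases of annotated transcripts are shown for a fixed list of 8 members, written 5′ to 3′ along the transcript, with any pyrimidine run in capitals. A run was a C followed by C or T only, at least 7 bases long, that began within the first 10 bases; the other strand was not searched. The genes are 6 cytosolic members, of which Rps25 and Rplp1 had among the smallest adjusted p, and the 2 mitochondrial members with the smallest p. Where a gene had several coding transcripts, one with a run was taken if there was any.
Rps25: CCTTTTTTTCCgacatcttagcgaggctgc
Rplp1: gatCTTTTCCTCagctgccgccaaggtgct
Rps27: CCTTTCCggcggtgacgacctccctacgag
Rpl22: gCCCCCCTCCCTTTCTgcctcctctgccgc
Rpl11: acggggccggaagtctccctctctcttcct
Rpl7: cccagagctgacgaggtgtccccactctat
Mrps5: gcagctgtccgaggctgagcctgactcagt
Mrps6: cgtctgcgcagctgccggagcctttaaacc

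These stretches lie on mm10 at chr9:44407695-44407724 on the plus strand (Rps25), chr9:61914513-61914542 on the minus strand (Rplp1), chr3:90213619-90213648 on the minus strand (Rps27) and chr4:152325853-152325882 on the plus strand (Rpl22). The stretch of Rpl11 is at chr4:136053364-136053393 on the minus strand, that of Rpl7 at chr1:16104633-16104662 on the minus strand, that of Mrps5 at chr2:127587222-127587251 on the plus strand and that of Mrps6 at chr16:92058270-92058299 on the plus strand. All are first exons of GENCODE M21 transcripts. A run was present in 33 of 83 cytosolic genes (39.8%), in 6 of 76 mitochondrial genes (7.89%) and in 2759 of all 21901 genes with a coding transcript (12.6%). Annotated starts can lie several bases from the start used in a cell, so the count describes the annotation. Among tested protein-coding members of the cytosolic set, the median log2 fold change was 0.39 for the 33 with a run and 0.44 for the 47 without one.

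Zbtb16 checked the labels, with 2899 and 2921 normalized counts in PLZF+ libraries against 310 and 699 in PLZF- libraries, summed over 8 rows. Estimated depth without the rRNA precursor was 1837509 and 2035064 reads for PLZF+ cells, against 744570 and 981882 for PLZF- cells. The median difference between the 2 libraries of a subset, on the log2 scale, was 0.199 in PLZF+ and 0.159 in PLZF- cells for cytosolic rows, and 0.474 in PLZF+ and 0.625 in PLZF- cells for mitochondrial rows. Of the γδ T cell markers, all 6 measured (CD3 chains, Cd247, Thy1 and the row with Tcrg-C3) lay higher in both PLZF+ libraries. Their summed normalized counts were 5276 and 5740 against 1331 and 1928. A large part came from the row with Tcrg-C3 (2511 and 2835 against 440 and 488), which also holds Trgj2, Tcrg-V5 and Tcrg-V6. Markers of innate lymphoid and NK cells went the other way (7 of 7 lower in both PLZF+ libraries, sums of 154 and 109 against 3770 and 3149), as did those of dendritic cells (6 of 7, sums of 165 and 45.8 against 1532 and 711). Summed macrophage markers were 13.6 and 32.4 against 77.6 and 97.6, with C1qa, C1qb and Mrc1 at 0 throughout, and B and plasma cell markers 33.4 and 29.6 against 592 and 265, nearly all from Jchain in the PLZF- libraries and all from Cd79b in the PLZF+ libraries (33.4 and 29.6 against 1.69 and 7.32). Klre1, Siglech and Jchain were at 0 in both PLZF+ libraries, and the 5 stromal markers were at 0 in all 4 libraries. Summed αβ T cell markers were 92.3 and 89.8 against 94.5 and 56.1. The row with Trac had 92.3 and 89.8 against 67.5 and 35.4, while Cd4, Cd8a and Cd8b1 were at 0 in both PLZF+ libraries. Summed endothelial markers were 132 and 137 against 92.8 and 109, and Pecam1 alone had 132 and 137 against 79.3 and 106. Depth and many of these markers move with the subset in every comparison below, and their part in the results was not tested.

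Messages of cytosolic ribosomal proteins took a larger part of the PLZF+ libraries. Their 90 rows held 3.51% and 3.39% of the total normalized count in PLZF+ libraries, against 2.52% and 2.95% in PLZF- libraries. The mitochondrial rows held 0.246% and 0.230% in PLZF+ libraries, against 0.208% and 0.186% in PLZF- libraries. For both sets each PLZF+ library lay above each PLZF- library. Of the mitochondrial subunits the 39S rows had this order (0.152% and 0.142% against 0.105% and 0.110%) and the 28S rows did not (0.0937% and 0.0886% against 0.103% and 0.0757%). With 2 libraries per subset a two-sided exact permutation test cannot give a p below 0.333. In bulk samples more cells of a type and more RNA per cell cannot be told apart. Shares of the total FPKM did not give this order for the cytosolic rows (7.99% and 11.5% against 9.63% and 10.3%) or for the mitochondrial rows (0.331% and 0.459% against 0.344% and 0.382%), and a single row, 9230102K24Rik, made up 28.9% of the total FPKM in A7. Without that row the cytosolic FPKM shares were 11.2% and 11.5% for PLZF+ cells, against 9.63% and 10.3% for PLZF- cells, and the mitochondrial shares were 0.466% and 0.459%, against 0.344% and 0.382%.

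**Figure D1:**
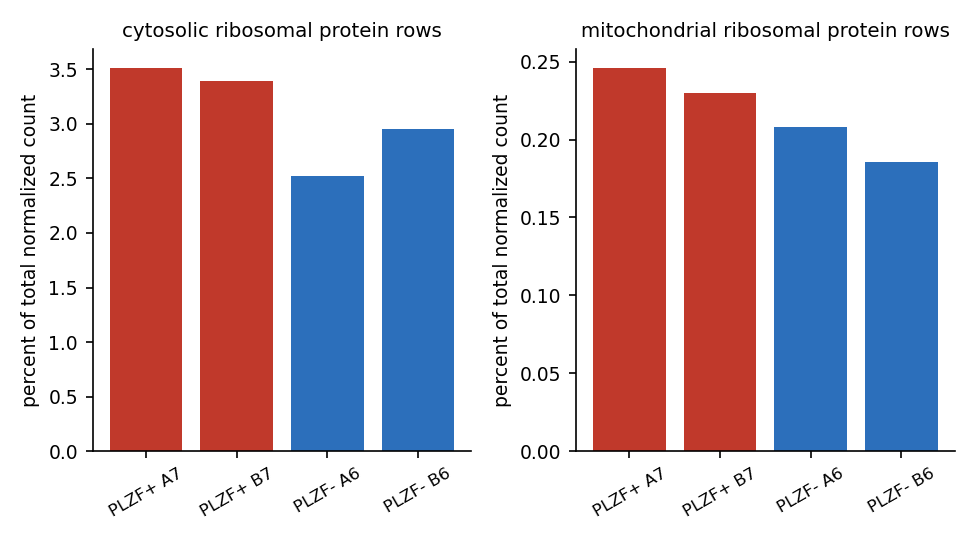
Percent of the total normalized count (rRNA precursor left out) held by cytosolic rows, left, and mitochondrial ribosomal protein rows, right, with 1 bar per library and each axis starting at 0. Both PLZF+ bars (3.51% and 3.39%, cytosolic) are taller than both PLZF- bars (2.52% and 2.95%).

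No single member passed the test. The test was limma on log2 of the normalized count plus 1, run on the 9501 rows that averaged 10 or more normalized counts, with p adjusted over all of them by the Benjamini-Hochberg method and a threshold of 0.05. Of the members, 83 cytosolic and 70 mitochondrial rows were tested, and 7 of each set were too low. The 7 cytosolic rows were the paralogs Rpl3l, Rpl10l and Rpl39l, the pseudogene rows Gm8210, Rps3a3 and Rps12l1, and a row named RPS12L2; 3 of them were at 0 in all libraries. Limma called 0 of the 83 and 0 of the 70 in either direction, where 2.55% of all tested rows were called higher and 4.98% lower in PLZF+ cells (7.53% in all). The smallest adjusted p was 0.064 in the cytosolic set and 0.069 in the mitochondrial set. At an unadjusted p under 0.05, 22 cytosolic rows were higher and 0 lower, and 4 mitochondrial rows were higher and 1 lower, where the shares over all tested rows were 8.41% higher and 12.1% lower. The authors' deposited table, made with Cuffdiff, also called 0 members of either set, with a smallest q of 0.13 and 0.059, and called 5.73% of all rows it tested.

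The cytosolic set as a whole leaned to PLZF+ cells by a small amount. Of 83 tested rows, 74 had a positive log2 fold change, against 48.4% of all tested rows, and the median was 0.39 against -0.03. Both PLZF+ libraries lay above both PLZF- libraries for 61 of the 83, and below both for 5, where the shares over all tested rows were 24% and 27.3% (51.3% in all). The middle of the set ran from a lower quartile of 0.22 to an upper quartile of 0.61. The large and the small subunit were alike in this, with medians of 0.41 over 49 tested rows of the 60S and 0.39 over 34 of the 40S subunit. The median standard error of a cytosolic member was 0.249, about the size of the shift of many single members.

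**Figure D2:**
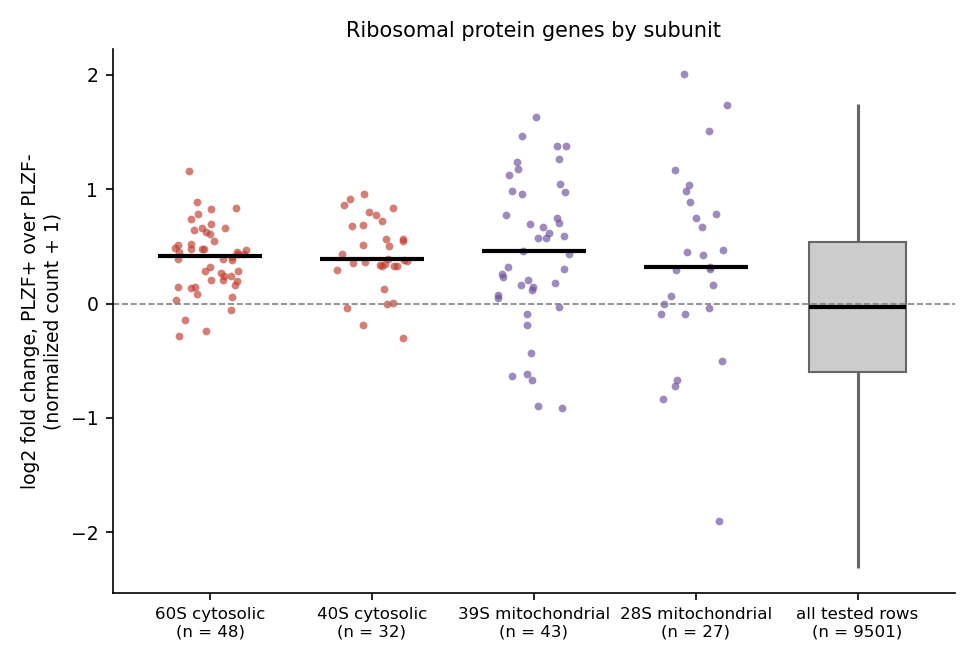
Log2 fold change, PLZF+ over PLZF-, of each tested protein-coding member (points) by subunit, with the median as a black line. The grey box gives the quartiles of all 9501 tested rows with lines to the 5th and 95th percentiles. Most 60S and 40S points lie between 0 and 1, and 39S and 28S points spread more widely.

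Among proteins of the 60S subunit, Rpl38 had the highest log2 fold change. Rpl38, which in mouse embryos is needed for translation of a subset of Hox messages, had 76.8 and 55.8 normalized counts in PLZF+ libraries against 21.9 and 37.8 in PLZF- libraries. The subsets did not overlap, and the log2 fold change was 1.16 ± 0.52 (SE, limma adjusted p = 0.23). Rpl41, which encodes one of the smallest known proteins, had 227 and 220 normalized counts against 155 and 92.7 (log2 fold change 0.89, adjusted p = 0.14). Its PLZF+ libraries were close to each other and its PLZF- libraries spread apart. Rpl11, a partner of 5S ribosomal RNA that also binds Mdm2, had 480 and 386 normalized counts against 209 and 279 (log2 fold change 0.83 ± 0.25, limma adjusted p = 0.074). Rpl11 passed the threshold in 2 of 15 alternative settings, over which its adjusted p ran between 0.015 and 0.59. Rpl5, which binds 5S RNA together with Rpl11, had 903 and 957 normalized counts against 929 and 1135, and its subsets overlapped (-0.14, adjusted p = 0.72). The 2 partners of one particle therefore had values on both sides of 0, and the difference between them was not tested.

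The stalk of the 60S subunit, which recruits the translation GTPases, is made of Rplp0, Rplp1 and Rplp2. Rplp1 had 569 and 503 normalized counts in PLZF+ libraries against 327 and 334 in PLZF- libraries (log2 fold change 0.69 ± 0.22, limma adjusted p = 0.084), and passed in 3 of 15 alternatives (adjusted p between 0.035 and 0.57). Rplp2, whose row also holds Snora52, had 253 and 233 against 143 and 146 (0.74, adjusted p = 0.15). For both, each PLZF+ library lay well above each PLZF- library. Rplp0, the base on which they sit, had 2150 and 2385 normalized counts against 1706 and 2266, with overlapping subsets (0.20, adjusted p = 0.56).

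Other abundant 60S messages lay on both sides of 0. Rpl3, which lies near the peptidyl transferase centre, had 975 and 1098 normalized counts in PLZF+ libraries against 1198 and 1326 in PLZF- libraries (log2 fold change -0.28, limma adjusted p = 0.40). Rpl7 had 1023 and 1116 normalized counts against 1210 and 1310 (-0.24, adjusted p = 0.49). In both genes the PLZF+ libraries lay below the PLZF- libraries, by less than the test could call. Rpl13a, known for translation control in inflamed human myeloid cells, had 779 and 686 against 493 and 557 in a row shared with Snord33 and Snord34 (0.48, adjusted p = 0.20). Rpl10, which joins the subunit late, had 844 and 783 against 569 and 660 in a row shared with Snora70 (0.41, adjusted p = 0.27).

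In the 40S subunit the smallest adjusted p was that of Rps25, which was named after its values were seen. Rps25, used by viral internal ribosome entry sites, had 403 and 349 normalized counts in PLZF+ libraries against 185 and 229 in PLZF- libraries. All PLZF+ values exceeded all PLZF- values, and the log2 fold change was 0.86 ± 0.25 (SE, limma adjusted p = 0.064). It passed in 5 of 15 alternatives, with adjusted p between 0.016 and 0.51. Rps14, the protein whose loss of 1 copy marks the human 5q- syndrome, had 879 and 725 normalized counts against 518 and 477 (0.68 ± 0.20, limma adjusted p = 0.068), and passed in 3 of 15 alternatives (adjusted p between 0.014 and 0.60). Rps29 had 181 and 110 against 67.5 and 76.8 (0.96, adjusted p = 0.17), and Rps28 had 129 and 90.4 against 50.6 and 63.4 (0.92, adjusted p = 0.22). In both of these A7 was the highest library. Rps19, which is mutated in human Diamond-Blackfan anaemia, had 401 and 353 against 268 and 262 (0.50, adjusted p = 0.26).

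Rps6, the substrate of S6 kinase, had the lowest log2 fold change of the cytosolic set. It had 534 and 563 normalized counts in PLZF+ libraries against 675 and 676 in PLZF- libraries (-0.30 ± 0.20, limma adjusted p = 0.43). Its subsets did not overlap and each was narrow. Rps3a1 had 1098 and 1095 normalized counts against 1233 and 1267 (-0.19, adjusted p = 0.59), again without overlap. Rpl9 completes the 5 rows in which both PLZF+ libraries were lower, beside Rps6, Rps3a1, Rpl3 and Rpl7 (-0.06, adjusted p = 0.90, named after its values were seen). Rps3, at the messenger entry channel, had 1112 and 1149 against 1005 and 1265 in a row shared with Snord15b (0.00, adjusted p = 0.996), and Rpsa, also known as a laminin receptor, had 1629 and 1781 against 1552 and 1979 (-0.04, adjusted p = 0.92). Both overlapped between subsets.

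**Figure D3:**
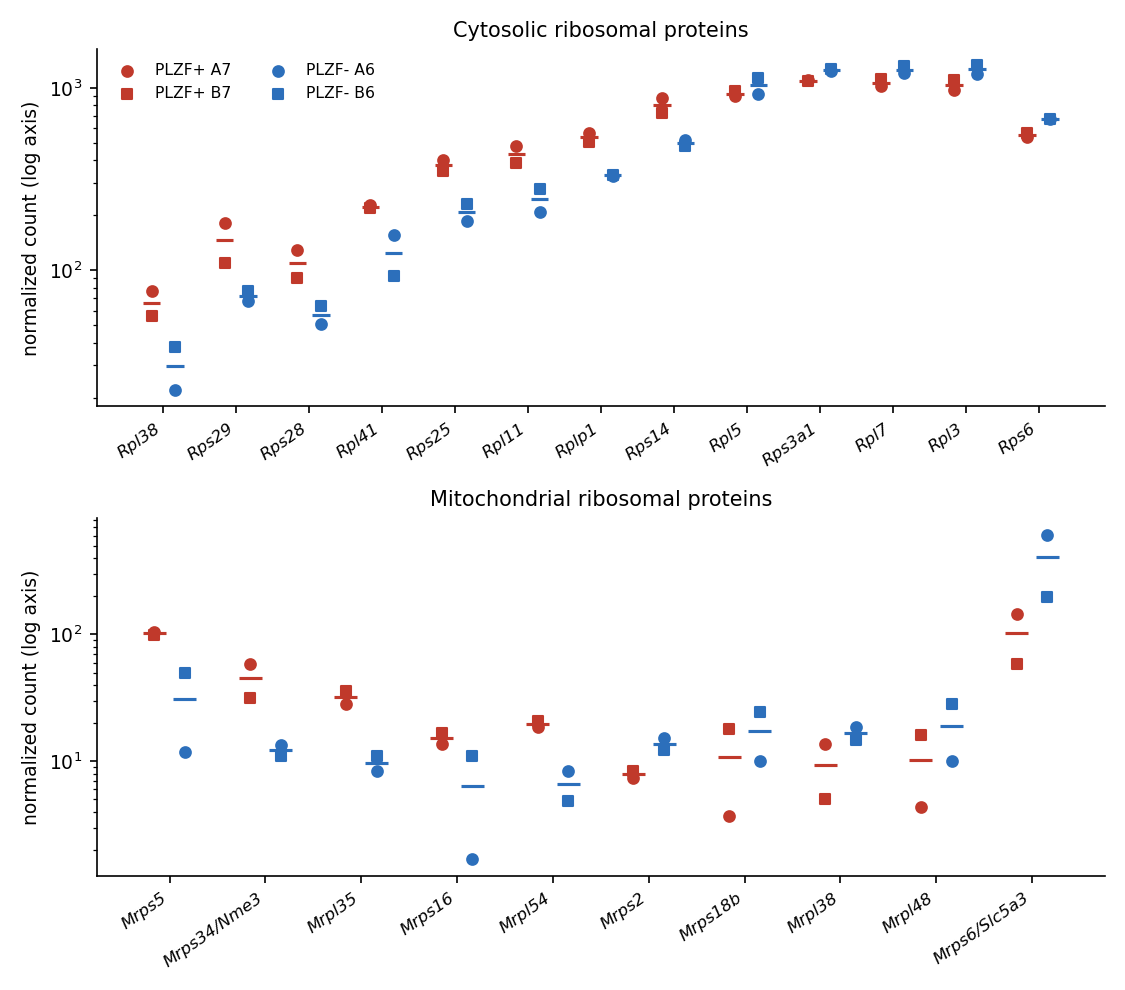
Normalized count (log axis) of the cytosolic members with the highest and lowest log2 fold changes and the smallest adjusted p, top (among protein-coding genes), and of the 10 mitochondrial members at the ends of their range, bottom, in each library; circles are A7 and A6, squares B7 and B6, and bars are means. For Rps25 both PLZF+ values (403 and 349) lie above both PLZF- values (185 and 229), and for Rps6 both (534 and 563) lie below (675 and 676).

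Per unit of length, Rps4x, Rplp1 and Rps27 were the most abundant cytosolic members. Rps4x, encoded on the X chromosome, had 1724 and 2454 FPKM in PLZF+ libraries against 1876 and 2401 FPKM in PLZF- libraries, a difference within the spread of each subset. Rplp1 had 1827 and 1764 FPKM against 1179 and 1256 FPKM. Rps27 had 1996 and 1488 FPKM against 1180 and 1190 FPKM, and both genes thus kept their order on this scale. Over tested protein-coding rows the median mean FPKM was 481 in the cytosolic and 19.4 in the mitochondrial set. The lowest tested protein-coding cytosolic row was Rpl7l1 (22.3 and 9.89 FPKM against 14.8 and 13.2 FPKM), a paralog of Rpl7.

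Paralogs were read side by side, as levels per length. Rpl22, without which mouse αβ T cells arrest while γδ T cells develop, had 47.5 and 37.5 FPKM in PLZF+ libraries against 28.5 and 34.6 FPKM in PLZF- libraries (count-based log2 fold change 0.43, limma adjusted p = 0.51). Its paralog Rpl22l1 had the higher FPKM in every library, at 242 and 220 FPKM against 146 and 295 FPKM (0.29, limma adjusted p = 0.77). Normalized counts had the reverse order in every library. Rpl22 had 165 and 129 against 97.8 and 118, and Rpl22l1 had 83.0 and 68.6 against 43.9 and 86.6. Which paralog was more abundant thus depends on the scale, with annotated transcripts of 474 (Rpl22) and 552 nucleotides (Rpl22l1). Rps27 exceeded Rps27l, a p53 target, in every library, with Rps27l at 158 and 80.1 FPKM against 56.0 and 79.8 FPKM (0.84, adjusted p = 0.52). Rpl39, which lines the exit tunnel, had 952 and 743 FPKM against 523 and 564 FPKM (0.78, adjusted p = 0.22). Its testis-type paralog Rpl39l was not tested, with 4.07 and 1.27 FPKM in PLZF+ libraries and 0 in both PLZF- libraries. Rpl10l and Rpl3l, the paralogs known from testis and muscle, were listed at 0 in all 4 libraries. The pseudogene row Rps4l had the largest log2 fold change of all (2.89 ± 1.31, limma adjusted p = 0.24), from 32.2 and 22.9 normalized counts against 0 and 13.4. Reads of such near copies can be split between rows. The 227 rows named as ribosomal protein pseudogenes, which are no members, amounted to 5.02% and 5.00% of the cytosolic sum in PLZF+ libraries, against 4.96% and 5.01% in PLZF- libraries.

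Mitochondrial ribosomal proteins had more scatter than the cytosolic set. Of 70 tested rows, 52 had a positive log2 fold change, and the median was 0.43. At a minimum mean of 50 normalized counts, which left 12 rows, 7 were positive and the median was 0.19, against 0.39 in the cytosolic set. Both PLZF+ libraries lay above both PLZF- libraries for 25 rows and below both for 6, against 24% and 27.3% of all tested rows, while 39 overlapped. The median standard error was 0.651, and the subunit medians were 0.46 (39S, 43 tested rows) and 0.32 (28S, 27 tested rows). The median tested member had a mean of 27.0 normalized counts, against 303 over the tested protein-coding rows of the cytosolic set. Of the 7 untested rows 1 was at 0 in all libraries.

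Mrps5, a protein of the 28S subunit (chromosome 2), had the highest log2 fold change of the mitochondrial set. It had 105 and 98.2 normalized counts in PLZF+ libraries against 11.8 and 50.003 in PLZF- libraries, so PLZF+ values were close together and A6 stood low. The log2 fold change was 2.01 ± 0.61 (SE, limma adjusted p = 0.072), and the authors' deposited table gave q = 0.059. Without B6 the log2 fold change was 3.003 and passed (limma adjusted p = 0.024), and over 15 alternatives, of which 4 passed, the adjusted p ran between 0.0017 and 0.48. Mrps34 shares its row with Nme3, and the row had 58.7 and 31.4 normalized counts against 13.5 and 10.98 (1.74, adjusted p = 0.15). Mrps16, the relative of bacterial S16, had 13.6 and 16.7 against 1.69 and 10.98 (1.51, adjusted p = 0.52). Counts this low rest on few reads, and a single read is worth 1.69 normalized counts in A6. Mrps12, the relative of bacterial S12 in the decoding centre, had 22.9 and 18.4 against 11.8 and 13.4 (0.67, adjusted p = 0.67).

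The largest negative value belonged to a row that Mrps6 shares with Slc5a3, a myo-inositol transporter gene. The row had 146 and 58.6 normalized counts in PLZF+ libraries against 612 and 198 in PLZF- libraries (log2 fold change -1.90 ± 0.54, limma adjusted p = 0.069). The subsets did not overlap, although A6 was far above B6 and A7 far above B7. The value cannot be assigned to either gene, and it passed in 1 of 14 alternatives, the column letter as a term (adjusted p between 6.5e-08 and 0.50). Mrps18b (-0.83) and Mrps2 (-0.72) were the other 28S members among the 5 lowest, with adjusted p of 0.70 and 0.74. Mrps35 (0.45), Mrps21 (1.16) and Mrps31 (-0.04) had adjusted p of 0.74, 0.46 and 0.99.

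In the 39S subunit the highest values were those of Mrpl35 and Mrpl54. Mrpl35 had 28.5 and 35.7 normalized counts in PLZF+ libraries against 8.44 and 10.98 in PLZF- libraries (log2 fold change 1.63 ± 0.72, limma adjusted p = 0.22). Mrpl54 had 18.6 and 20.6 against 8.44 and 4.88 (1.47, adjusted p = 0.42). Neither overlapped between subsets. Mrpl12, the stalk protein of the mitochondrial ribosome, had 31.6 and 32.9 against 28.7 and 15.9 (0.57, adjusted p = 0.66), and Mrpl11, at the base of that stalk, had 11.1 and 17.9 against 20.2 and 24.4 (-0.62, adjusted p = 0.68). Mrpl48 (-0.91) and Mrpl38 (-0.90) were lowest, with adjusted p of 0.66 and 0.65. By FPKM the most abundant mitochondrial row was that of Mrpl33, shared with Babam2, with 391.7 and 172.1 FPKM against 67.4 and 197.3 FPKM (count-based log2 fold change 0.74, adjusted p = 0.26), followed by Mrpl30 and Mrps21.

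Cytosolic members with short annotated transcripts had higher fold changes than those with long ones. Cytosolic members with an annotated transcript under 600 nucleotides had a median log2 fold change of 0.64, and 26 of 26 were positive. The median was 0.39 for 34 members of 600 to 1000 nucleotides, 0.22 for 16 members of 1000 to 2000 nucleotides and 0.24 for 4 longer members. These are annotated lengths, and FPKM per count did not always follow them. In A7, Rps15a (5130 nucleotides) had 350 normalized counts and 519 FPKM, and Rpl22 (474 nucleotides) had 165 and 47.5. Some members may thus stand in the wrong length class. Other tested rows also had their highest median in the shortest class, with medians of 0.98 (70 rows), 0.58 (305 rows), 0.13 (1628 rows) and, from 2000 nucleotides, -0.11 (5709 rows). Among other rows averaging 100 or more normalized counts, closer to the level of cytosolic members, the medians were 0.72 (8 rows), 0.51 (56 rows), 0.04 (342 rows) and -0.20 (1669 rows). Across genes, Spearman's rho of length with log2 fold change was -0.57 in the cytosolic set (80 rows). It was -0.22 in the mitochondrial set (70 rows) and -0.18 in other rows (7712 rows). With the mean normalized count in place of length, rho was -0.54 in the cytosolic set, -0.19 in the mitochondrial set and -0.09 in other rows. Genes share the same 4 libraries and are not independent. Length moves with the subset over the whole table. The parts of length and level in the shift of ribosomal protein messages were not tested.

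**Figure D4:**
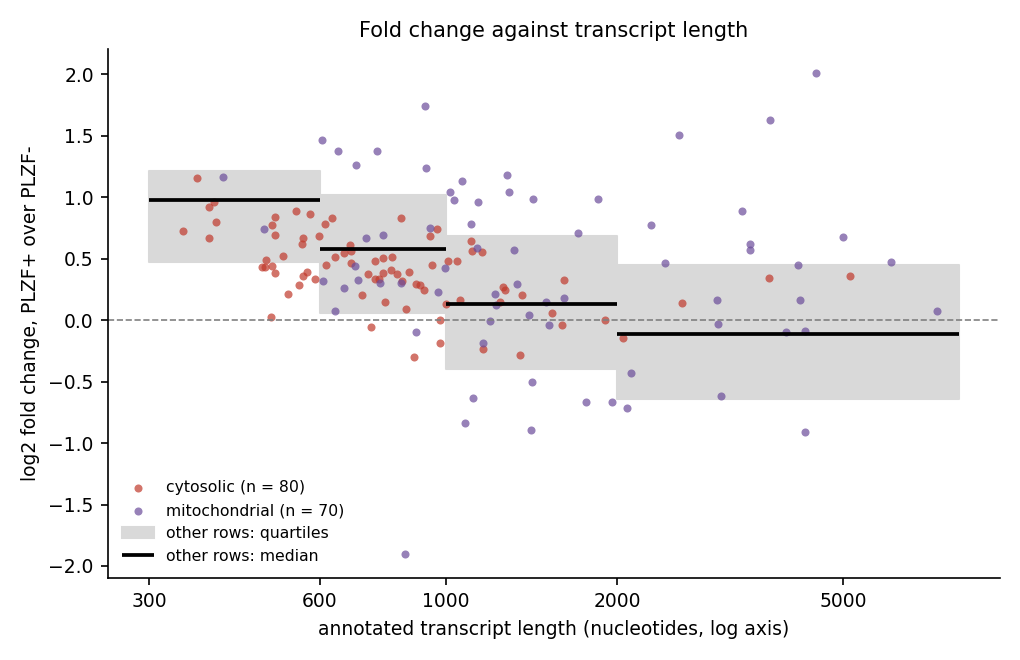
Log2 fold change, PLZF+ over PLZF-, against annotated transcript length (log axis) for tested protein-coding cytosolic and mitochondrial members (points). Grey bands and black lines are the quartiles and medians of all other tested rows in 4 length classes, drawn over the plotted range only. Cytosolic points under 600 nucleotides all lie above 0, and so does the median of other rows of that length (0.98).

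Few genes that build or serve ribosomes were called. On 9 lists of ribosome building and translation genes, with 244 tested rows that are no members, 2 rows rose and 2 fell in PLZF+ cells, where the shares over all tested rows were 2.55% higher and 4.98% lower (8.41% and 12.1% at an unadjusted p under 0.05). Among 85 tested ribosome assembly factors limma called 0, the median log2 fold change was 0.01, and 2 were higher and 2 lower at an unadjusted p under 0.05. The smallest p were those of Eif6, which keeps free 60S subunits from joining (61.9 and 71.4 normalized counts in PLZF+ libraries against 132 and 123 in PLZF- libraries, -0.93, adjusted p = 0.17), and Gnl2, a nucleolar GTPase (-0.91, adjusted p = 0.19). For RNA polymerase I, which transcribes rRNA, limma called 0 of 18 (0 at an unadjusted p under 0.05) with a median of 0.24. Its subunit gene Polr1b (-1.19, adjusted p = 0.25) and Znrd1 (1.65, adjusted p = 0.28) had the smallest p.

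Of 40 tested initiation factors 0 rose and 1 fell, with a median of -0.14. Eif5, the GTPase activator of eIF2, fell to 294 and 263 normalized counts in PLZF+ libraries, against 545 and 460 in PLZF- libraries (log2 fold change -0.85 ± 0.23, limma adjusted p = 0.043). The call was lost without any single library (adjusted p 0.073 without B6, 0.20 without A6, 0.28 without A7 and 0.41 without B7). Limma called 0 of 14 elongation and release factors (median 0.01, 0 higher and 1 lower at an unadjusted p under 0.05). The abundant Eef1a1, which delivers aminoacyl-tRNA, had 8351 and 9871 normalized counts against 10060 and 10649 in a row shared with AK204572 (-0.19, adjusted p = 0.45), and Eef1g had a value of -0.48 (adjusted p = 0.20).

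Regulators of TOP messages gave no call either: limma called 0 of 26 genes of mTOR, S6 kinase and related factors (3 higher and 2 lower at an unadjusted p under 0.05), with a median of -0.02. Mtor itself had 92.9 and 71.4 normalized counts in PLZF+ libraries against 16.9 and 59.8 in PLZF- libraries (1.32, adjusted p = 0.22), and Lamtor1, part of its lysosomal anchor, had 58.8 and 64.2 against 13.5 and 30.5 (1.55, adjusted p = 0.15). Genes listed as other TOP messages, which encode no ribosomal protein of the set, had a median of -0.09 over 28 tested rows, with 1 higher and 1 lower. Pyrimidine runs were not counted for this list. Vim, encoding vimentin, rose to 2520 and 1854 normalized counts, against 1014 and 1528 (0.80 ± 0.22, limma adjusted p = 0.043), a call lost without any single library (adjusted p 0.050 without B6, 0.21 without B7, 0.29 without A6 and 0.59 without A7). The host gene of small nucleolar RNAs Snhg5, in a row with AF357374 and Gm25122, fell to 32.01 and 40.97 normalized counts, against 135 and 111 (-1.73, adjusted p = 0.024), also lost without any library (adjusted p 0.074 without B6 to 0.24 without A7).

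A list of 5 tested rows held further cytosolic ribosome genes, most without the usual prefix, and had a median log2 fold change of 0.48. One of its rows, Rpl36a, is also a member of the cytosolic set, and over the 4 rows that are no members the median was 0.29. Fau, which encodes a ubiquitin-like protein fused to a 40S protein, had 497 and 394 normalized counts in PLZF+ libraries against 273 and 326 in PLZF- libraries (log2 fold change 0.57, limma adjusted p = 0.20). Rack1, the scaffold on the 40S head, named after its values were seen, had 1314 and 1565 against 1301 and 1574 in a row shared with Gm25296 and Snord96a (0.00, adjusted p = 0.996). Limma called 0 of these 5 rows (2 higher and 0 lower at an unadjusted p under 0.05). Of 7 further mitochondrial ribosome genes limma called 0 (0 at an unadjusted p under 0.05), with a median of 0.39, and the smallest p were those of Dap3 (1.02, adjusted p = 0.51) and Chchd1 (0.67, adjusted p = 0.69).

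Among 41 tested mitochondrial translation and assembly factors 1 rose and 0 fell, with a median of 0.24. Lars2, the mitochondrial leucyl-tRNA synthetase, rose to 401 and 381 normalized counts in PLZF+ libraries, against 152 and 238 in PLZF- libraries (log2 fold change 1.04 ± 0.28, limma adjusted p = 0.039). The call held without B6 (limma adjusted p = 0.037) and was lost without A6 (0.19), B7 (0.34) or A7 (0.39).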

How the data were processed

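The submitters' processing notes name mm10, HISAT 0.1.6, SAMtools 1.2, Cufflinks 1.2 and Cuffdiff. Annotation and strand setting are unknown here, so overlapping genes are not separable. The authors deposited normalized counts from Cuffnorm (a signal, not raw counts), FPKM, and Cuffdiff results with a p-value and q-value for each row. Symbols were checked by position against GENCODE M21, and 2 rows of rRNA precursor were left out (Rn45s was 0 in B7 and 26.8% to 33.2% of the other totals).

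Rows averaging 10 or more normalized counts were tested with limma 3.58.1 in R 4.3.3 (trend, robust, two-sided) on log2(normalized count + 1), which understates changes of low genes; the threshold was 0.05 after Benjamini-Hochberg adjustment. The fit was run on simulated independent counts with a single fixed dispersion and no length-linked shift. That run checks the code and not how well the fit suits these data. Reads were estimated from the value steps of each library, and p-values measure the spread between pools. Python 3.11.15 made the tables (pandas 2.3.3, numpy 2.4.6) and figures (matplotlib 3.10.9). Transcript length is that of the shortest best-supported principal coding transcript. Members and lists were chosen with earlier results of these data known. The text names members past the threshold, the 5 highest and 5 lowest fold changes and the 3 highest and 3 lowest mean FPKM of each set, preset names, and from other lists called genes or the 2 smallest p. Alternatives were other pseudocounts, filters and scalings, the FPKM table, no trend, rows of 1 gene, the column letter as a term, and each library left out.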

Additional observations from a re-analysis of the deposited data

How the results depend on the processing

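The positive median of both sets held under all 15 alternatives to the limma fit. Of these, the fit without trend and robust and that with the column letter leave fold changes unchanged, so they could not move a median. The call of single members did not hold: 6 members passed in at least 1 alternative. Of cytosolic rows, 1 was called higher with a pseudocount of 4 and 1 on the FPKM table, 3 with equal totals, 4 with a minimum mean of 50 and 4 with the column letter as a term; 0 were called lower in any. Of mitochondrial rows, 1 was called higher with a pseudocount of 4, on the FPKM table and with the column letter, which also gave 1 lower; without single libraries the count was 0 to 1. The cytosolic median was 0.31 to 0.53 without single libraries and 0.50 with equal totals, a scaling that moved the median of all rows by 0.11, so that relative to it the cytosolic median was 0.42; the mitochondrial median was 0.29 to 0.51 without single libraries, 0.53 with equal totals and 0.19 at a minimum mean of 50, where 12 rows were left. Over all rows, 117 were higher and 273 lower with no filter, 31 and 181 without trend and robust fit, and 425 were higher with the column letter; without single libraries 23 to 247 were higher and 100 to 266 lower. Values near 0 changed sign: Rps4x was 0.031 with median-ratio scaling, 0.11 with equal totals and -0.24 to 0.23 without single libraries, Rpsa 0.068 with equal totals and -0.22 to 0.13, Mrps31 0.062 and -0.48 to 0.40, and Rps3 -0.012 on the FPKM table and -0.16 to 0.17. Without single libraries the ranges were -0.29 to 4.3e-05 for Rpl5, -0.00098 to 0.41 for Rplp0, -0.43 to 0.71 for Rpl7l1, -0.20 to 0.77 for Rpl22l1, -0.60 to 1.06 for Mrpl30, -1.83 to 0.17 for Mrps18b and -0.035 to 0.94 for Mrps35. The cytosolic share of PLZF+ minus that of PLZF- libraries, 0.712 percentage points of counts, was -0.220 of FPKM and 1.40 of FPKM without the row of 9230102K24Rik; the mitochondrial share, 0.0409 points, was 0.0992 without that row. On the translation lists, the 2 higher and 2 lower rows became 0 and 0 with no filter and without trend and robust fit, 0 and 1 with a pseudocount of 0.25 and on the FPKM table, and 1 lower with median-ratio scaling, equal totals or rows of 1 gene; without single libraries 0 to 1 were higher and 0 lower. The cause of these changes was not tested. Summing overlapping loci, the FPKM shares, and the alternatives for shares and translation lists were chosen after seeing the data. Where a library was left out, the lone library of its subset was assumed to vary like the other 2. The count tests on recovered reads were not run, because 92.5% to 94.3% of values gave whole reads (within 0.05 of a read), too few. No paired analysis was possible because the table columns carry none of the replicate numbers in the labels; the column letter, whose meaning is not given in the sources used here, was fitted as a term instead. Depth limits the mitochondrial rows most, where the median member rests on 27.0 normalized counts.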
